A study of Mus musculus with 19 samples.

Results

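The Sav1 interval on mouse chromosome 12 spanned chr12:70600000-71250000 on NCBI37, and was measured by array comparative genomic hybridization (aCGH) in 10 liver tumors and 9 unaffected livers of 9 mice. It was named for Sav1 and for the neighboring genes Map4k5 and Atl1. It had been chosen by its measured values, because it was low in some of the tumors, and so its ratios in these arrays are given as a description, from which no p-value is read. Of the 238202 probes on the array that were not controls, 83 lay inside the interval, against 10295 probes on the whole of chromosome 12 and 221455 on the autosomes. Neighboring probes of the interval started a median of 6889 bases apart.

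All tumor-bearing mice carried Mad2(f/f), floxed alleles of a spindle assembly checkpoint gene, together with Alb-Cre, a Cre recombinase expressed from the albumin promoter and hence in hepatocytes. The 4 hepatocellular adenomas (HCA) came from 4 female mice aged 12 to 16.9 months, of which mice 2430 and 6199 were p53(f/f) and mice 5884 and 5901 were p53(f/+). The 6 hepatocellular carcinomas (HCC) came from 5 mice aged 12.3 to 16.2 months with the p53ser246+ genotype. Mouse 6240, a female, gave 2 of these carcinomas, tumor 2 and tumor 4, and the males 6487, 6565 and 6642 and the female 6602 gave 1 each. HCA and HCC therefore differed in p53 genotype as well as in grade, and these cannot be told apart. They also differed in part in sex and in scan day. All adenomas were from females and were scanned on days 1 and 2, while 5 of the 6 carcinomas were scanned on day 3. Each of the 9 mice also gave 1 unaffected liver, which carried the genotype of its tumor. The DNA of each sample was labeled with Cy5 and hybridized against Cy3-labeled liver DNA of a mouse of the opposite sex that carried neither the floxed genes nor Alb-Cre, and all mice were on a mixed background of C57BL/6 and 129. The paper describes the Alb-Cre knockout as specific to parenchymal liver cells. Blood and stromal cells in a tumor would then retain an unrecombined genome, and the fraction of such cells was not measured. A low ratio in all cells and a lower ratio in some of the cells give the same value in bulk DNA.

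Sav1 encodes the Salvador scaffold protein of the Hippo pathway. It holds the kinases MST1 and MST2 (Stk4 and Stk3) together with the kinases Lats1 and Lats2, which phosphorylate the coactivators Yap1 and Taz (Wwtr1) and keep them out of the nucleus. In the liver, this pathway restrains hepatocyte proliferation and organ size. Map4k5 encodes a kinase of the MAP4K family, members of which can act on the Lats kinases next to MST1 and MST2. Atl1 encodes atlastin-1, a GTPase that fuses tubules of the endoplasmic reticulum and is best known from neurons. On the RefSeq annotation of GRCm38.p6, a different build, the coding genes of the neighborhood run in the order Cdkl1, Map4k5, Atl1, Sav1 and Nin. Gene positions on NCBI37 were not used here, so probes are given by position and not by exon.

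The start regions of the Hippo pathway scaffold and of the MAP4K kinase are shown because both genes gave the interval its name. Both sequences are the 250 bases before the transcription start on GRCm38.p6, from RefSeq, read 5′ to 3′ on the minus strand, with the dinucleotide CG in capitals. The Sav1 sequence lies at chr12:69987003-69987252 and the Map4k5 sequence at chr12:69893164-69893413.
Sav1: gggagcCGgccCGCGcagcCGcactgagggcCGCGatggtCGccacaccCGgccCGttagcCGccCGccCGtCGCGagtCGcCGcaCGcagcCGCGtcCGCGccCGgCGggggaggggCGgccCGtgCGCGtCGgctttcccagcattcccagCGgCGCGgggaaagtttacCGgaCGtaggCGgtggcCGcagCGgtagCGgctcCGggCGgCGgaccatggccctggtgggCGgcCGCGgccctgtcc
Map4k5: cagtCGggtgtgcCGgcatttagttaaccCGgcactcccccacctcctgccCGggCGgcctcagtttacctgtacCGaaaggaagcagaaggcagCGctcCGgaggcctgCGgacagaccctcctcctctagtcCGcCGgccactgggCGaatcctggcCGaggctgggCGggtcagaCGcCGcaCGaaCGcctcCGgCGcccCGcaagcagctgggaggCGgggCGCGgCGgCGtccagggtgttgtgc
The Sav1 sequence held 43 CG dinucleotides at a GC content of 79.2%, and 0.712% of the 32851 RefSeq promoter sequences of this length held as many or more. The Map4k5 sequence held 26, which 9.59% of all promoters reached, and the Atl1 sequence on the opposite strand held 47, which 0.25% reached. The median promoter held 6. The promoter windows of Map4k5 and Atl1, 250 bases before and 50 after each start, overlapped by 41 bases, so that both genes start within the same CG-rich stretch on opposite strands.

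The interval was low in HCC 6240 tumor 2 and in HCC 6487, and lay near the level of the rest of chromosome 12 in every other tumor and in every liver. The aCGH ratio is given throughout on the log2 scale, and for the interval it is the mean of its 83 probes minus the median of the rest of chromosome 12 in the same sample. It was -0.74 in HCC 6240 tumor 2 and -0.79 in HCC 6487. Among the other carcinomas it was -0.00 in HCC 6240 tumor 4, 0.01 in HCC 6565, -0.04 in HCC 6602 and -0.04 in HCC 6642. The 2 low carcinomas were thus separated from the other 4 by a gap far wider than the spread of those 4. The adenomas had ratios of 0.06 in HCA 2430, -0.05 in HCA 5884, 0.01 in HCA 5901 and 0.04 in HCA 6199. The 9 livers lay between -0.08, in the liver of mouse 6487, and 0.06, with a median of -0.02. All 4 adenomas and the other 4 carcinomas lay within the range of the livers. The group means were 0.01 ± 0.05 in HCA (SD, n = 4), -0.27 ± 0.39 in HCC (SD, n = 6) and -0.01 ± 0.04 in liver (SD, n = 9), so the SD of the carcinomas was set by the 2 low samples.

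**Figure D1:**
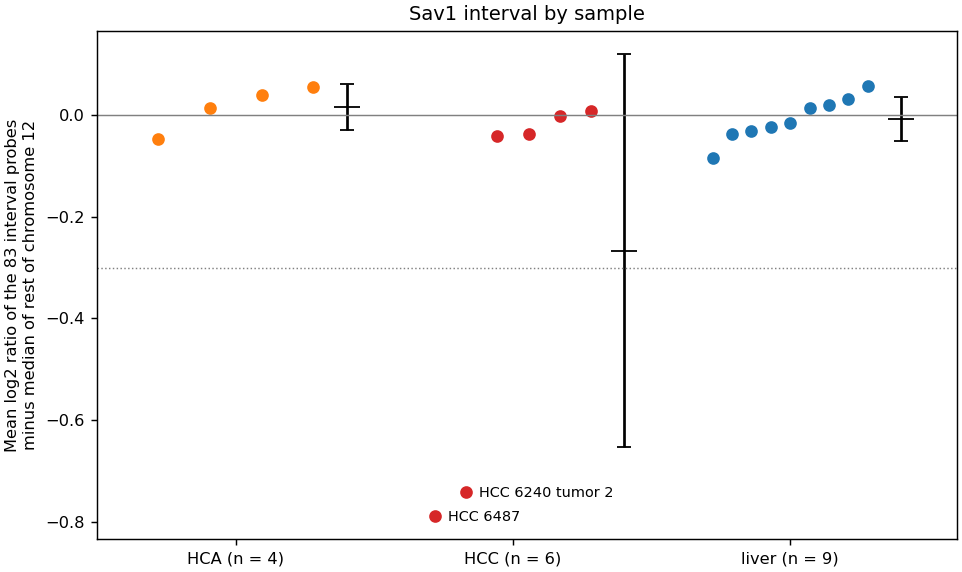
Mean log2 aCGH ratio of the 83 interval probes minus the median of the rest of chromosome 12 (vertical axis), 1 point per sample, for HCA, HCC and liver, with the group mean and SD in black and a dotted line at -0.3. HCC 6487 (-0.79) and HCC 6240 tumor 2 (-0.74) lie far below all other samples, which stay between -0.08 and 0.06.

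Subtraction of the liver of the same mouse gave the same picture. The difference between tumor and own liver over the interval was -0.76 in HCC 6240 tumor 2 and -0.70 in HCC 6487, against -0.06 to 0.08 in the other 8 tumors. Tumor and own liver had been scanned on the same day for both carcinomas. In HCC 6240 tumor 2, 48 of the 83 probes (57.8%) were at or below -0.3, the cut-off for focal changes that the study applied, while 13.9% of all autosomal probes of this tumor passed it. In HCC 6487, 72 of 83 probes (86.7%) were at or below -0.3, while 13.0% of its autosomal probes were. In the other 8 tumors, 7 to 16 of the 83 probes, or 8.43% to 19.3%, were at or below this cut-off. Single probes therefore crossed -0.3 often in every tumor, and in HCC 6240 tumor 2 and HCC 6487 the low probes formed runs. These counts come from the values that chose the interval and are printed beside the background without being read against it.

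The 2 losses did not share an edge. The edges were taken from the single segment of at least 5 probes that best fitted the difference between tumor and own liver in the interval and 1 Mb on each side. In HCC 6240 tumor 2, the segment held 41 probes from 70873252 to 71134648, and was between 261 kb (first to last probe inside) and 275 kb (up to the nearest probes outside) long. On the proximal side, toward the centromere, the last probe outside, which started at 70866383, had a difference of 0.15, and the first probe inside had -1.55. On the distal side, the last probe inside had -1.52, and the next probe, which ended at 71141805, had -0.40. With the liver subtracted, the step was hence complete between neighboring probes on the proximal side, whereas the first probe beyond the distal edge was still past -0.3. In the tumor's own ratio, the distal step ran from -1.82 to -0.11 between the same neighboring probes. With tumor 4 of the same mouse in place of the liver, it ran from -1.62 to -0.22. The mean difference in the segment was -1.50 ± 0.38 (SD over 41 probes, which are not replicates), and 40 of the 41 probes were at or below -0.3.

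In HCC 6487, the segment was longer and shallower. It held 75 probes from 70691909 to 71248549, and was between 557 kb and 578 kb long. The last proximal probe outside, starting at 70680913, had a difference of -0.38, and the first probe inside had -0.68. At the distal end the last probe inside had -0.84 and the next probe, ending at 71259170, had 0.12. Here the distal step was complete between neighbors, and the proximal one passed through a probe of middle height. The mean difference in this segment was -0.77 ± 0.37 (SD over 75 probes), with 71 of the 75 probes at or below -0.3. The last probe inside ended 1.45 kb before the end of the interval.

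The loss in HCC 6240 tumor 2 lay entirely within that of HCC 6487. The edges differed by 181 kb on the proximal side and by 114 kb on the distal side. All 41 probes of the shorter loss were in the longer one, where they made up 54.7% of its 75 probes. The same 4 edge probes were found when the tumor ratio was taken without its liver, when the values were smoothed over 3 probes, when the baseline was taken from the flanks, and when spots marked as outliers were kept. For HCC 6240 tumor 2 they were found again with tumor 4 of the same mouse in place of the liver, a comparison chosen after the data had been seen.

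**Figure D2:**
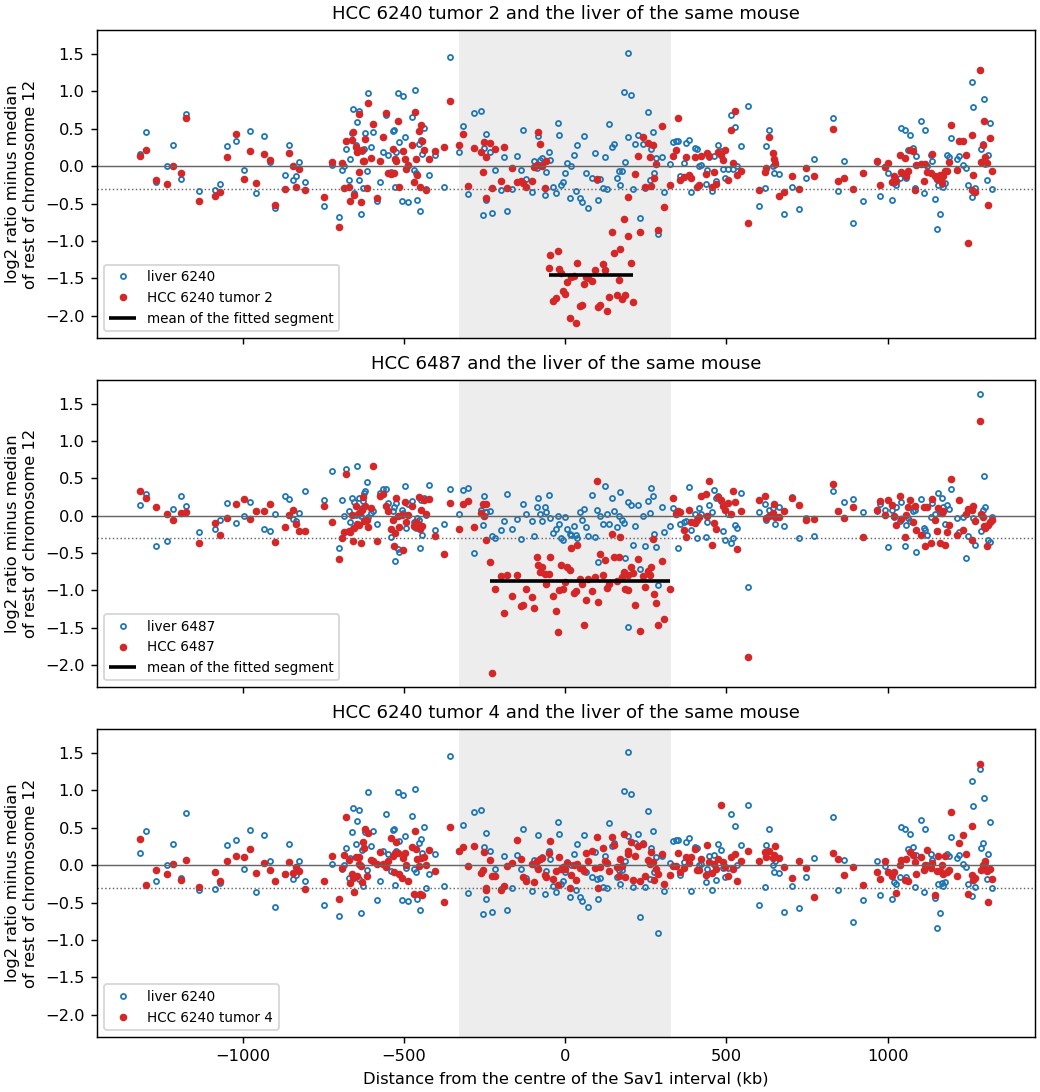
Log2 aCGH ratio minus the median of the rest of chromosome 12 (vertical axis) for each probe of the interval (gray) and of 1 Mb on each side, against the distance from the interval's center in kb. Red points are the carcinoma, open blue points the liver of the same mouse, the black line the mean of the segment fitted to the tumor's own ratios, and the dotted line -0.3. The low run is 41 probes long in HCC 6240 tumor 2 and 75 probes long in HCC 6487, and no such run is seen in HCC 6240 tumor 4 or in the livers.

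The shared stretch of 261 kb was deeper in HCC 6240 tumor 2 than in HCC 6487. As the tumor's own ratio against the rest of chromosome 12, the mean of its 41 probes was -1.46 in the former and -0.80 in the latter, and 38 of the 41 probes were lower in HCC 6240 tumor 2. On a linear scale, these means are 36.3% and 57.4% of the level of the rest of chromosome 12. The other 17 samples had means between -0.12 and 0.07 over the same probes. The 19 probes that only the longer loss held on its proximal side had a mean of -0.97 in HCC 6487 and -0.03 in HCC 6240 tumor 2. The 15 probes that only the longer loss held on its distal side had means of -0.95 and -0.10. HCC 6487 was therefore lower in both outer stretches than in the shared one in its own ratio, and its liver had -0.12 in the shared stretch, the lowest value among the livers. With the liver subtracted, the shared stretch of HCC 6487 was at -0.68 and the outer stretches at -0.94 and -0.81.

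Chromosome 12 as a whole was also low in HCC 6487, and the interval lay below that level. The median of the rest of chromosome 12 was -0.40 against the autosomal median in HCC 6487 and -0.04 in HCC 6240 tumor 2. Against the autosomal median, the shared stretch was hence at -1.20 in HCC 6487 and at -1.50 in HCC 6240 tumor 2, or 43.4% and 35.4% of the control signal. The difference in depth between the 2 tumors was thus smaller on this scale. The rest of chromosome 12 had medians from -0.34 to -0.06 in the adenomas, from -0.40 to -0.01 in the carcinomas and from -0.01 to 0.05 in the livers. A low chromosome 12 was common among these tumors. The focal step was seen in HCC 6487, where the rest of the chromosome was at -0.40, and in HCC 6240 tumor 2, where it was at -0.04.

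The X chromosome gives a measured scale for these steps, since the control DNA came from the opposite sex. The median ratio of the 11957 X probes was -0.90 in the liver of the male 6487 and 1.03 in the liver of the female 6240. Across all 6 arrays of male mice it lay between -1.08 and -0.90. The shared stretch in HCC 6487, at -1.20 against the autosomal median, was 1.15 times as deep as the X step of the same array, which was -1.05. In HCC 6240 tumor 2, the X ratio was 0.32, the lowest of the 13 arrays of female mice, and thus was no scale for this tumor. Tumor 4 of the same mouse had 0.73. No copy number was derived from these values. The size of these steps changed with the background correction. With normexp on the median signals, the interval was at -0.04 in HCC 6487, and the X step of the same array was -0.07. The interval stayed at -0.50 in HCC 6240 tumor 2 with normexp.

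**Figure D3:**
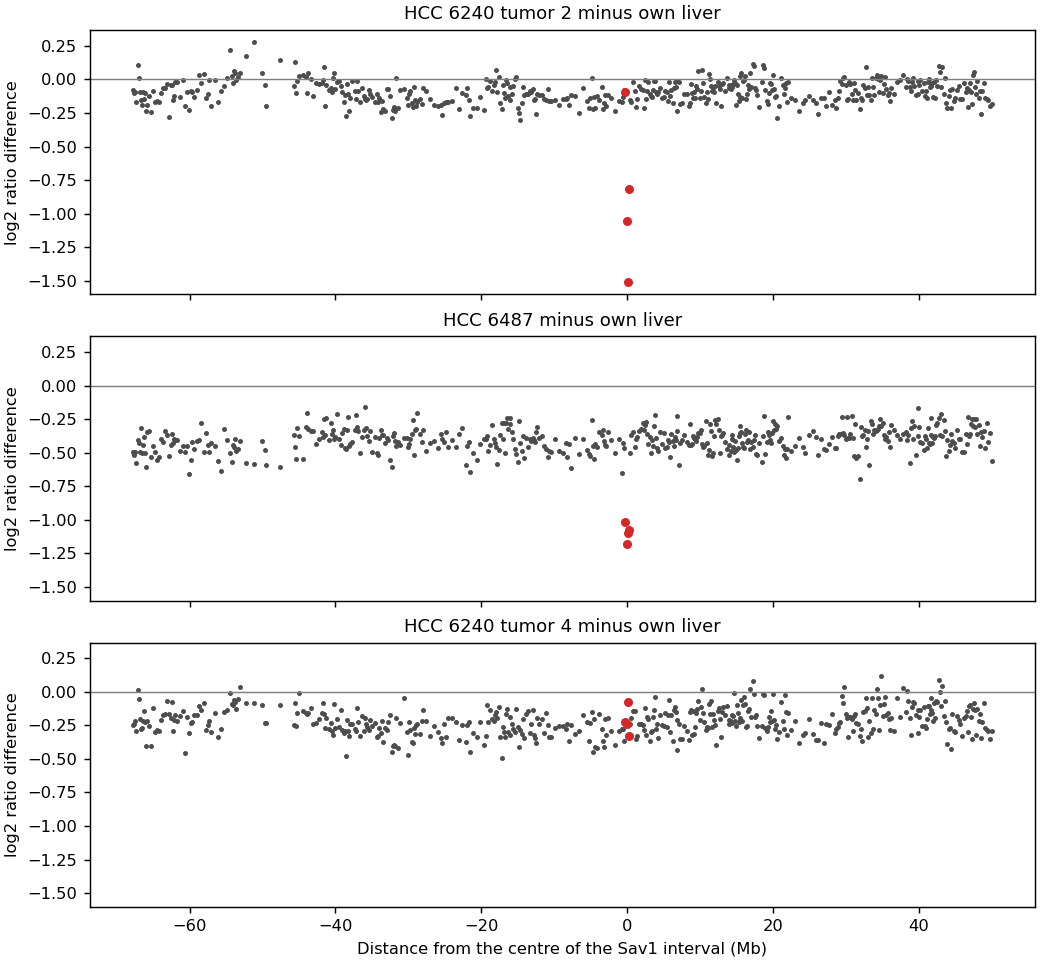
Difference in log2 aCGH ratio between carcinoma and own liver (vertical axis) for windows of 20 neighboring probes along chromosome 12, against the distance from the center of the Sav1 interval in Mb. Red points are the 4 windows centered in the interval. In HCC 6240 tumor 2 and in HCC 6487 the lowest windows of the chromosome are in the interval, in HCC 6487 on top of a chromosome that is low along its whole length, and in HCC 6240 tumor 4 the windows of the interval lie among the others.

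The 2 carcinomas of mouse 6240 differed at the interval. They shared the mouse, its liver and the scan day, and tumor 4 had an own ratio of -0.00 over the interval where tumor 2 had -0.74. With the liver subtracted, 16 of 83 probes were at or below -0.3 in tumor 4 and 48 in tumor 2. The lowest single probe of the interval had -0.33 in tumor 4 and -2.09 in tumor 2, both as own ratios.

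The low ratios came from the sample channel. For the 41 shared probes, the log2 processed Cy5 signal of the tumor array minus that of the own-liver array was -1.45 ± 0.28 (SD over 41 probes) in HCC 6240 tumor 2, while the Cy3 signal of the control DNA differed by 0.05 ± 0.20. In HCC 6487, the Cy5 difference was -0.71 ± 0.39 and the Cy3 difference -0.03 ± 0.24. The Cy5 difference of the other 8 tumors lay between -0.06 and 0.15, and the Cy3 difference of all 10 tumors between -0.05 and 0.06. The control DNA thus gave the same level at these probes on the tumor and liver arrays to within 0.06.

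**Figure D4:**
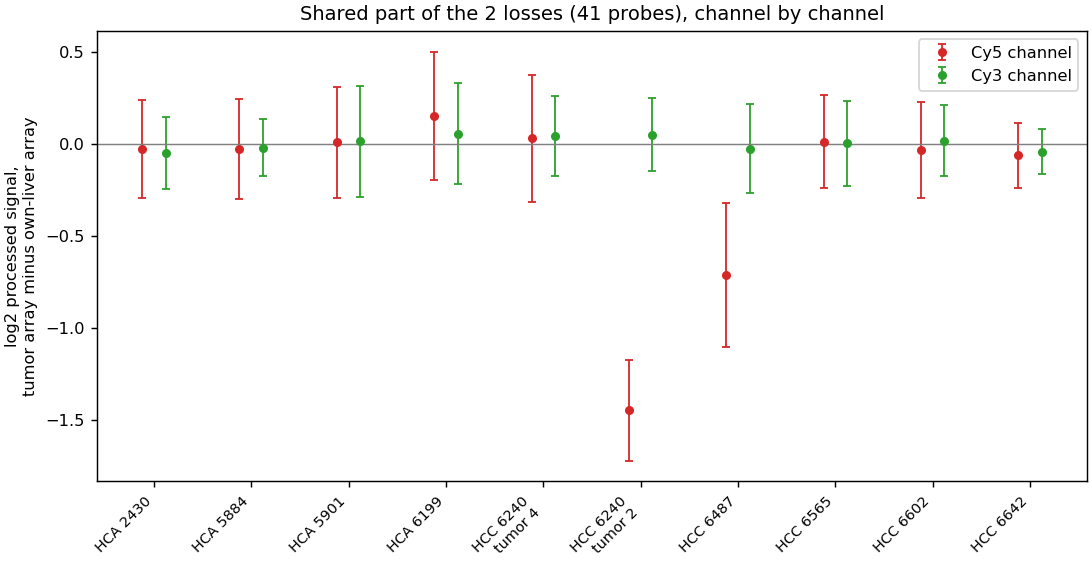
Log2 processed signal of the tumor array minus the own-liver array, relative to the rest of chromosome 12 (vertical axis), as the mean of the 41 probes shared by both losses, with bars for the SD over probes, for the Cy5 (tumor or liver DNA) and Cy3 (control DNA) channels of each of the 10 tumors. The Cy5 points of HCC 6240 tumor 2 (-1.45) and HCC 6487 (-0.71) are low, and all Cy3 points lie between -0.05 and 0.06.

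With the own liver subtracted, a single probe inside both losses was not low in either tumor. This probe, at chr12:71022374-71022418 and picked out after its values had been seen, had a difference from own liver of 0.02 in HCC 6240 tumor 2 and 0.39 in HCC 6487, while its 40 neighbors in the shared stretch were low in the former. It was 45 bases long, the shortest length in the interval, where the median probe had 60 bases and 8 of the 83 had fewer. Its Cy3 signal, 2066 as the median over arrays, ranked 5 of 41 from the brightest, against a median of 1249 over the shared probes. With tumor 4 of the same mouse in place of the liver, this probe was low too in HCC 6240 tumor 2. All 41 shared probes were then at or below -0.3, the highest at -0.54.

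The segment search also returned short runs, which set the size at which a segment can be read. Besides the 2 losses, 1 segment of the 10 tumors had a mean at or below -0.3. It held 5 probes, in HCC 6240 tumor 4, with a mean difference of -0.60, inside the stretch lost in tumor 2. At these 5 probes, the own ratio of tumor 4 was 0.18 and that of the liver of mouse 6240 was 0.78, so the low difference came from a high liver. Among the 9 livers, taken by themselves, 3 had a segment of 5 to 10 probes at or below -0.3. The array of the liver of mouse 6240 had the largest probe noise of the 19, an SD per probe of 0.42. The tumors had 0.18 to 0.29. This SD was estimated from the median absolute difference between neighboring autosomal probes. The search also returned gains at or above 0.3, of 13 probes at 0.44 in HCA 5884, of 5 probes in HCA 5901 and of 5 probes each in the livers of mice 6240 and 6642. Runs of 5 to 13 probes past the cut-off in either direction were thus found outside the 2 losses, which had 41 and 75 probes.

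Across the autosomes, the interval held the lowest window of both tumors. These ranks and counts are a description only, because the interval had been chosen for its low values in these arrays. Of 11063 windows of 20 neighboring probes, 11 (0.0994%) were at or below -0.3 in HCC 6240 tumor 2 after subtraction of the own liver and of the median of their chromosome, and 3 of these 11 were among the 5 windows that overlapped the interval. In HCC 6487, 20 windows (0.181%) passed, 4 of them in the interval. The lowest was at -1.43 in HCC 6240 tumor 2 and at -0.78 in HCC 6487, and each ranked 1 of 11063 in its tumor. In the other 8 tumors, no window of the interval was at or below -0.3, and the lowest of the 5 ranked between 361, in HCC 6642, and 4392, in HCA 6199, of 11063. In the tumors' own ratios, the lowest interval window still ranked 1 in HCC 6487 and ranked 2 in HCC 6240 tumor 2.

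The windows of the interval were set beside all autosomal windows by group, as a description, since the interval had been chosen on these samples. Their median difference between HCC and liver was -0.26, against -0.00 over all 11063 windows. Between HCC and HCA it was -0.27, and between HCA and liver 0.03. Over the whole set of windows, limma with Benjamini-Hochberg adjustment called 0 (0%) lower or higher in HCC against liver, in HCA against liver or in HCC against HCA, while 616, 774 and 639 windows had an unadjusted p under 0.05. With the autosomal median alone subtracted, and not that of each chromosome, 1560 of all windows (14.1%) were lower in HCC and 2719 (24.6%) lower in HCA than in liver. The low value was carried by 2 of 6 carcinomas, and the group mean of the interval, -0.27, became -0.16 without HCC 6487 and -0.17 without HCC 6240 tumor 2.

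The flanks of the interval, whose probes are not members of it, were tested between the groups. The bounds of the interval had been set with results of these arrays known, so the flanks were not chosen independently of the losses. In the proximal flank, 1 Mb with 81 probes, the mean ratio against the rest of chromosome 12 was 0.06 ± 0.04 in liver (SD, n = 9), 0.01 ± 0.03 in HCC (n = 6) and -0.01 ± 0.06 in HCA (n = 4). The difference from liver was -0.05 in HCC (exact two-sided permutation test, p = 0.0136, adjusted p = 0.0587 over 6 tests) and -0.07 in HCA (exact permutation p = 0.0294, adjusted p = 0.0587). The permutation tests of both flanks took all samples as independent, although each tumor shared its mouse with a liver and 1 mouse gave 2 carcinomas. The exact sign-flip test by mouse gave p = 0.0625 in HCC and 0.375 in HCA, and could not go below 0.0625 and 0.125. Within the scan day that held 5 carcinomas and 4 livers, the HCC difference was -0.08, and within the other day with both it was also -0.08, from 1 carcinoma and 2 livers. For HCA it was -0.10 and -0.01 within the 2 days that held both groups. HCC and HCA differed by 0.02 (exact permutation p = 0.524, adjusted p = 0.525), and by -0.07 within the only scan day that held both groups, from 1 carcinoma.

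In the distal flank, 1 Mb with 97 probes, the mean was 0.02 ± 0.04 in liver, 0.01 ± 0.01 in HCC and 0.04 ± 0.02 in HCA. The differences were -0.01 between HCC and liver (exact permutation p = 0.525, adjusted p = 0.525), 0.02 between HCA and liver (exact permutation p = 0.358, adjusted p = 0.525) and -0.03 between HCC and HCA (exact permutation p = 0.0286, adjusted p = 0.0587). Within scan days these were -0.04 and -0.00 for HCC against liver, 0.04 and 0.06 for HCA against liver, and -0.06 for HCC against HCA, from 1 carcinoma. No flank difference passed the threshold of 0.05 after adjustment, and none was larger than 0.1 on the log2 scale. HCC 6240 tumor 2 had 0.06 and -0.00 in the proximal and distal flank, and HCC 6487 had -0.03 and -0.00. The proximal value of HCC 6487 was the lowest of the 6 carcinomas and below all 9 livers, which lay between 0.02 and 0.11. All other carcinomas except HCC 6240 tumor 2 were also below the livers. HCA 2430, at -0.09, and HCA 5884, at -0.05, were lower than HCC 6487, and the other adenomas lay within the liver range. After subtraction of its own liver, HCC 6487 had -0.09 in this flank, against -0.70 for the interval. HCA 2430 (-0.13), HCC 6240 tumor 4 (-0.11), HCC 6565 (-0.11) and HCC 6602 (-0.11) were lower in this flank, and the remaining tumors were higher.

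On every array, nearly all probes of the interval gave a signal. Between 79 and 83 of its 83 probes were well above background in both channels on each array, and none of its spots was marked as an outlier. Over all autosomal spots that were not controls, the median ratio of Cy5 signal to local background was 1.84 to 4.95 per array. Precision was limited by the number of arrays, 1 per sample.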

How the data were processed

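Genomic DNA of 19 samples was hybridized by the authors to 2-color CGH arrays of 243301 spots (Feature Extraction 10.5.1.1, probe positions on NCBI37). The deposited files hold the log10 ratio of Cy5 over Cy3, and the deposited processed and median signals are intensities that the authors' scanner software wrote. The processed signals were background-subtracted and dye-normalized by that software. A deposited series table repeats the log10 ratios to within 5e-10. The files name no genes, so genes were not placed and the Hippo gene list was not measured.

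Log10 ratios were converted to log2. Control spots and outlier spots were left out, saturated spots kept, and spots of the same probe averaged. Each array was centered on its autosomal median, and the median of chromosome 12 outside the interval was subtracted. The members, the interval and the gene list were chosen with earlier results of these data known, and no p-value is given for the interval's values, although its windows were part of the fit over all windows. Group tests used windows of 20 probes in place of genes (limma 3.58.1 in R 4.3.3, all 19 samples, chromosome medians subtracted, adjusted p under 0.05) and, for the flanks, exact permutation tests of the absolute difference in means (Python 3.11.15), adjusted by Benjamini-Hochberg. The edge search and the limma step were tested on simulated data. The rule for named genes was Sav1, Map4k5, Atl1 and the Hippo list. Tumor and liver were paired by mouse: deviations from group means correlated over windows by 0.04 to 0.56, above 0.1 in 8 of 10 pairs. The own liver was the best correlated liver for 6 of the 10 tumors. For HCC 6487 and HCC 6240 tumor 4, among others, the liver of another mouse correlated better. p-values measure only the spread between these samples.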

Additional observations from a re-analysis of the deposited data

How the results depend on the processing

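The edge probes of both losses were the same under all 5 other ways of mapping them that were planned, and 3 or 4 tumors had a segment called a loss. The interval was low in HCC 6240 tumor 2 under every alternative run, and in HCC 6487 under every one except normexp. With normexp, the interval's own ratio was -0.50 in HCC 6240 tumor 2 and -0.041 in HCC 6487, and the differences from own liver were -0.54 and -0.037. The X step of the HCC 6487 array shrank from -1.05 to -0.07 under this setting. The cause of these changes was not tested. With no background correction, the own ratios were -0.51 and -0.34 and the differences from own liver -0.52 and -0.31, with an X step of -0.57 for HCC 6487. Loess gave -0.71 and -0.64 in HCC 6487. Against the autosomal median, HCC 6487 had -1.19 and a difference from own liver of -1.10, and HCC 6240 tumor 2 a difference of -0.84. The median over probes gave -0.55 and -0.54 in HCC 6240 tumor 2, and a difference of -0.76 in HCC 6487. The other 8 tumors stayed between -0.08 and 0.08 minus own liver under every setting but the autosomal median.

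No flank difference passed the threshold in the main setting, and several did under others, with adjusted p from exact permutation tests. In the proximal flank, HCA minus liver was -0.055 with loess (0.0392), -0.30 with the autosomal median (0.004) and -0.071 with probes well above background on every array (0.0336). HCC minus liver was -0.048 with loess (0.0143), -0.27 with the autosomal median (0.0012), -0.056 with outlier spots kept (0.042) and -0.054 with probes well above background on every array (0.0336). HCC minus HCA turned to -0.0021 with normexp. In the distal flank, HCC minus HCA was -0.020 without background correction (0.0286), -0.045 with loess (0.0143), -0.076 with the median over probes (0.0286) and -0.054 with probes well above background (0.0286). With the autosomal median, the distal differences from liver were -0.21 in HCA, a turn of direction, and -0.23 in HCC (0.00629 and 0.004). With each sample left out in turn, the proximal differences ranged from -0.095 (without HCA 6199, adjusted p = 0.0409) to -0.051 for HCA minus liver, from -0.065 (without HCC 6240 tumor 2, adjusted p = 0.021) to -0.046 for HCC minus liver, and from -0.0037 (without HCA 2430) to 0.041 for HCC minus HCA. The distal HCC minus HCA difference ranged from -0.046 (without HCA 2430, adjusted p = 0.0408) to -0.028. Over all alternatives, adjusted p ran from 0.004 to 0.545 for HCA and from 0.0012 to 0.49 for HCC minus liver in the proximal flank, and from 0.0143 to 0.83 for HCC minus HCA in the distal one. The cause of these shifts was not tested. With the mouse as a replicate block, the exact sign-flip test cannot go below p = 0.125 for 4 adenoma pairs or 0.0625 for 5 carcinoma mice. The paired differences from own liver were -0.05 in HCA and -0.08 in HCC in the proximal flank, lower in 3 of 4 and in 5 of 5 mice (exact p = 0.375 and 0.0625, adjusted p = 0.375 and 0.167). In the distal flank they were 0.05 in HCA, lower in 0 of 4, and -0.03 in HCC, lower in 4 of 5 (exact p = 0.125 and adjusted p = 0.167 for each).

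In the limma test, 0 windows passed under every setting that subtracted chromosome medians, the replicate block and the scan day included, except that without HCA 2430 2 windows were lower in HCC than in HCA. None of the 2 was in the interval. With the autosomal median alone, 2719 windows (24.6%) were lower and 1538 higher in HCA than in liver, 1560 (14.1%) lower and 459 higher in HCC than in liver, and 532 lower and 448 higher in HCC than in HCA. Of the 5 interval windows, 1 was among those lower in HCA and 5 among those lower in HCC, a count from the samples that chose the interval, given with no test. At a cut-off of 0.2, 70 windows of HCC 6240 tumor 2 and 191 of HCC 6487 passed, and at 0.5, 6 of each. In its own ratio, 44 windows of HCC 6240 tumor 2 passed at 0.3. The alternative with at least 3 probes per gene was not run, because the files name no genes. Probe spacing limits each edge to the gap between neighboring probes, and runs of 5 to 13 probes cannot be read.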

Other observations

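Besides the Sav1 interval, few windows of 20 probes were at or below -0.5 in the 2 carcinomas with the loss, after subtraction of the own liver and the chromosome median. In HCC 6240 tumor 2 there were 3, of which neighboring windows at chr4:116017166-116160463 and chr4:116172219-116272744 on NCBI37 had -0.56 and -0.61. In the other 9 tumors the first of these lay between -0.08 and 0.04 and the second between -0.11 and 0.09. The last, at chr6:6276048-6542601, had -0.57, and was at -0.32 in HCA 5901 and at 0.28 in HCA 5884. In HCC 6487 there were 2, at chr1:166430638-166710373 with -0.68 and at chr6:86676123-86822232 with -0.58. These windows were picked out after their values were seen, and genes were not placed in them.

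The X chromosome of HCC 6240 tumor 2 had a median ratio of 0.32, against 0.73 in tumor 4 and 1.03 in the liver of the same female mouse. The X ratio of tumor 2 was 0.26 with loess, 0.15 without background correction and -0.25 with normexp, a turn of sign. In the ratios as deposited, both carcinomas of this mouse had a lower X ratio than their liver, and the tumor with the Sav1 interval loss had the lower of them. The median of chromosome 12 outside the interval was -0.04 in tumor 2 and -0.15 in tumor 4.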
